A study of Mus musculus with 10 samples.

Results

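The 43 genes described here mark T lymphocytes and natural killer (NK) cells. They form a list of named genes that covers the T cell receptor and its signalling, T cell subsets, and NK and cytotoxic functions. The list was chosen with earlier results of these data known. Of the 43 listed genes 40 were measured, among 19659 genes in all, each by 1 probe set, and Lck, Il2rg and Tcf7 were not analysed here. They were read in inguinal-femoral subcutaneous white fat of 10 untreated female F2 mice aged 14 weeks and fed chow, 1 one-colour array per mouse. FF mice (5, titled Fat/Fat) were homozygous for the Fat-line allele at Fob3a, an obesity locus on chromosome 15, and VV mice (5, titled V/V) were homozygous for the V-line allele, which the sample descriptions call the Lean-line allele. The V line was a congenic line that carries a recombinant Fob3a segment after repeated backcrossing to the Fat line, so the parents of the cross share much of their background, and the tissue was whole fat, not sorted cells. The question the design poses is how the genotype at Fob3a relates to expression in fat, and Deptor, the mTOR inhibitor in the series title, was higher in FF (FF minus VV 0.55 ± 0.06 log2 units, SE).

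T cells recognise antigen through a receptor whose chains signal by way of the CD3 and zeta chains, and the kinases Lck and Zap70 pass the signal to the adaptor Lat and on to Ras, calcium and protein kinase C. CD4 T cells help or regulate other leukocytes, while CD8 T cells and NK cells kill target cells with perforin and granzymes, NK cells without an antigen receptor of that kind. In white fat both kinds of cell reside among macrophages and B cells, the inguinal pad surrounds a lymph node, and T and NK cells of fat are known to shift in obesity.

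Nearly all of these lymphocyte genes lay lower in FF fat than in VV fat, by small amounts. Of the 40 measured members 38 had a difference below 0, against 49.7% of all genes. Shares of all genes are given for scale and do not test the list, which was chosen with earlier results of these data known. The median difference of the members was -0.14 log2 units, against a median of 0.0008 over all genes. Array medians were lower in FF (7.15 to 7.17) than in VV (7.18 to 7.21). The members' median was -0.104 after quantile normalisation, beside 0.0066 over all genes in that fit. After centring arrays on their median it was -0.105, beside 0.0378 over all genes. After adjustment over all 19659 genes 1 member fell, Rasgrp1, and none rose, which is 2.5% of the members beside a background of 0.132% of all genes called lower and 0.621% called higher (0.753% in either direction). At an unadjusted p under 0.05, 17 members (42.5%) lay lower and 0 higher, beside 6.18% and 10.2% of all genes. In 6 members the 5 FF mice all lay below the 5 VV mice (Rasgrp1, Cd4, Gzma, Klrk1, Icos and Cd6), which is 15.0% of members beside 1.34% of all genes, and in 0 members did all FF mice lie above all VV mice, beside 3.36% of all genes. Differences are FF minus VV of the deposited log2 intensities, tested with limma and Benjamini-Hochberg adjustment at a threshold of 0.05. Fewer lymphocytes in the pad and less of these RNAs per lymphocyte cannot be told apart in RNA of whole fat.

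**Figure D1:**
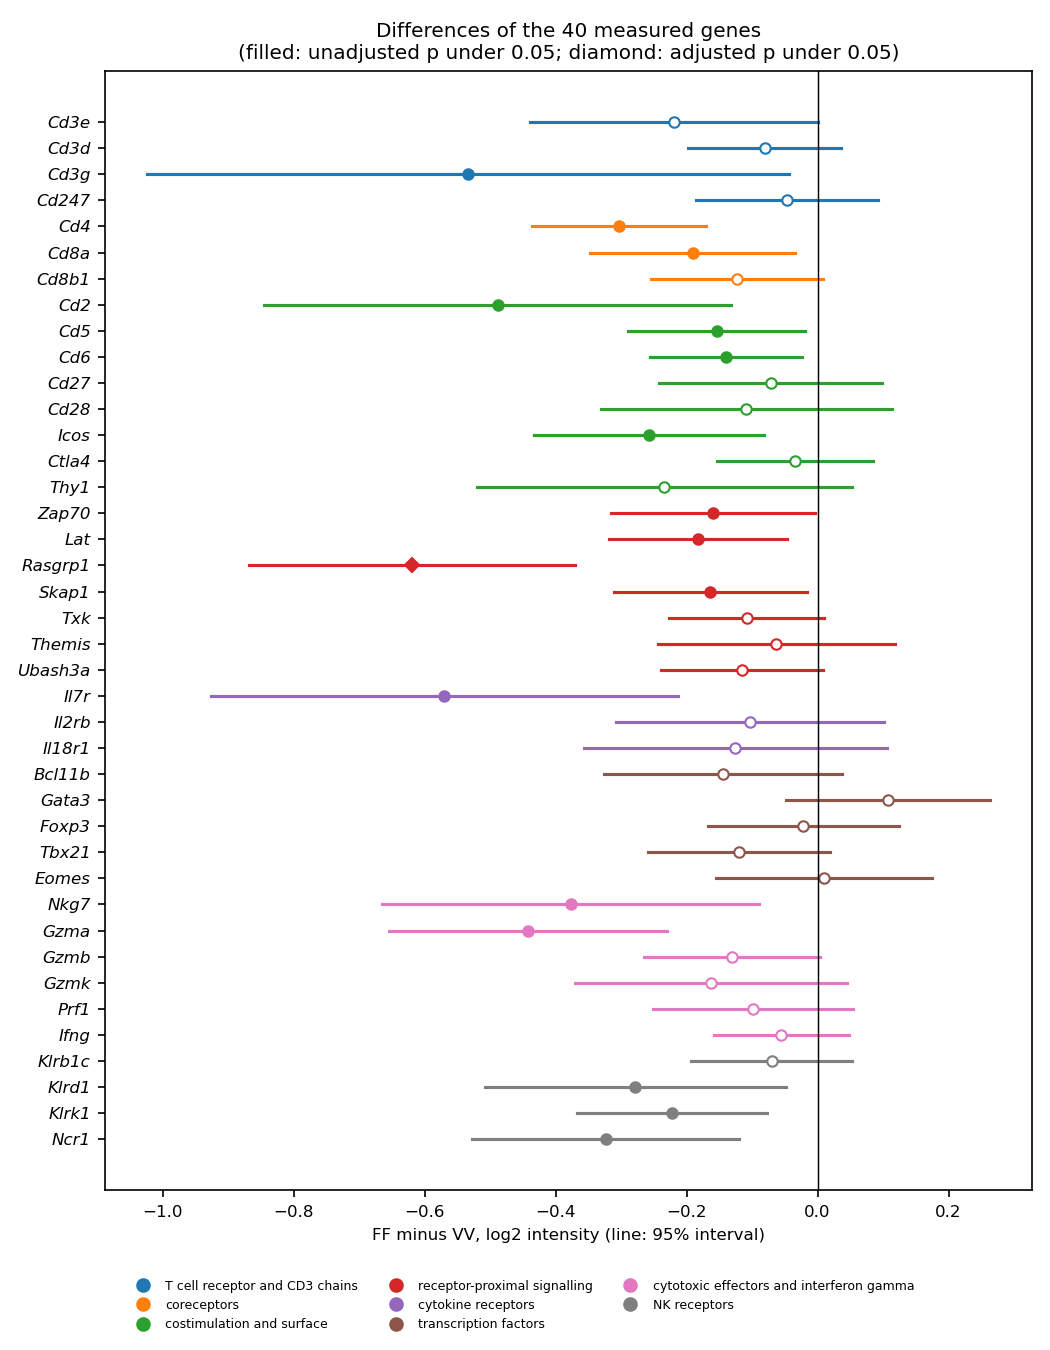
FF minus VV difference in log2 intensity of each of the 40 measured genes with its 95% interval, from limma, coloured by role; filled symbols have an unadjusted p under 0.05 and the diamond an adjusted p under 0.05. All but Gata3 and Eomes lie left of 0, and Rasgrp1 at -0.62 is the diamond.

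RNA of other tissues differed between mice. VV replicate 1 had a liver score, the mean of 11 liver genes each centred over the mice, of 3.17, and FF replicate 1 had a skeletal muscle score of 1.97, against at most 0.26 elsewhere. The second highest liver score was that of VV replicate 2, at 0.49, against -0.67 to -0.23 in the remaining 8, and the liver gene Ahsg read 9.04 there, against at most 7.26 in those 8. Of the 11 liver genes and the 12 genes of muscle 0 had an adjusted p under 0.05 in limma, and 1, the muscle myosin light chain Myl1, had an unadjusted p under 0.05. Without FF replicate 1 and VV replicate 1, 38 members lay below 0 and 16 had an unadjusted p under 0.05. The share of all genes under that p was not counted for this fit. In that fit 0 members passed the adjusted threshold, Rasgrp1 having an adjusted p of 0.0864 in limma. Over all genes the same fit called 3 lower in FF (0.0153%), against 26 (0.132%) with all mice. The groups of 4 mice each then did not overlap, with FF lower, for 9 members (22.5%), beside 3.63% of all genes. Adipoq, the adipocyte hormone adiponectin, read 13.25 to 13.41 in FF mice and 13.29 to 13.44 in VV mice, and its groups overlapped. Of 11 adipocyte genes 5 lay below 0 (median 0.05) and none passed the adjusted threshold in limma, while 3 lay higher and 1 lower in FF at an unadjusted p under 0.05. The hormone-sensitive lipase gene Lipe differed by 0.12 without overlap, Pnpla2, another lipase, by 0.13, the lipid droplet gene Plin1 by 0.08 and the leptin gene Lep by -0.24.

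No chain of the receptor complex passed the test, and the mice scattered widely. Cd3e read 8.16, 8.42, 8.15, 8.30 and 8.48 in FF replicates 1 to 5, against 8.42, 8.42, 8.79, 8.31 and 8.66 in VV replicates 1 to 5. Cd3e encodes the epsilon chain of CD3; the ranges overlapped and VV replicates 3 and 5 were highest. Its difference was -0.22 ± 0.10 (SE; 95% interval -0.44 to 0.001; adjusted p = 0.306). Cd3g had log2 intensities of 6.63, 7.56, 7.07, 7.56 and 7.40 in FF replicates 1 to 5, against 7.59, 7.79, 8.22, 7.18 and 8.11 in VV replicates 1 to 5. For this gene, the gamma chain, FF replicate 1 stood lowest and VV replicates 3 and 5 again highest, with the others mixed. The difference of Cd3g was -0.53 ± 0.22 with an interval from -1.02 to -0.04 (adjusted p = 0.260), the widest interval among the 40 members. Cd3d measured 5.12, 4.89, 5.02, 5.08 and 5.09 in FF replicates 1 to 5, against 5.11, 5.10, 5.08, 5.08 and 5.23 in VV replicates 1 to 5. Cd247 was at 7.06, 6.95, 6.77, 6.82 and 7.00 in FF replicates 1 to 5, against 6.92, 6.92, 7.00, 7.07 and 6.91 in VV replicates 1 to 5. Neither the delta chain gene Cd3d (-0.08 ± 0.05) nor the zeta chain gene Cd247 (-0.05 ± 0.06) passed the test, their groups overlapped, and the intervals allow falls of up to 0.20 and 0.19. The Cd3d probe set was faint, at percentile 11.3 of mean intensity, against 64.2 for Cd3e, so its interval may not bound the change in RNA.

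Among the coreceptors, Cd4 separated the groups. Cd4 read 7.17, 7.29, 7.09, 7.21 and 7.20 in FF replicates 1 to 5, against 7.32, 7.56, 7.54, 7.46 and 7.60 in VV replicates 1 to 5. All FF mice lay below all VV mice for this coreceptor of helper and regulatory T cells, which macrophages can express as well; the nearest pair was FF replicate 2 and VV replicate 1. FF mice averaged 7.19 ± 0.07 for Cd4 and VV mice 7.496 ± 0.11 (SD, 5 mice each), a difference of -0.30 ± 0.06, or 1.23-fold lower, and its adjusted p of 0.05003 fell just short of the threshold in limma. Without VV replicate 1, the mouse with the highest liver score, the difference was -0.35 with an adjusted p of 0.0300, and without any other single mouse it did not pass. Cd8a had log2 intensities of 6.57, 6.39, 6.32, 6.35 and 6.21 in FF replicates 1 to 5, against 6.45, 6.45, 6.65, 6.62 and 6.63 in VV replicates 1 to 5. Cd8b1 measured 6.04, 5.79, 5.96, 5.90 and 5.90 in FF replicates 1 to 5, against 5.97, 5.96, 6.18, 5.99 and 6.09 in VV replicates 1 to 5. Both chains of the CD8 coreceptor of cytotoxic T cells overlapped between groups, with FF replicate 1 the highest FF mouse for each. Their differences were -0.19 ± 0.07 (adjusted p = 0.206) and -0.12 ± 0.06 (adjusted p = 0.342).

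**Figure D2:**
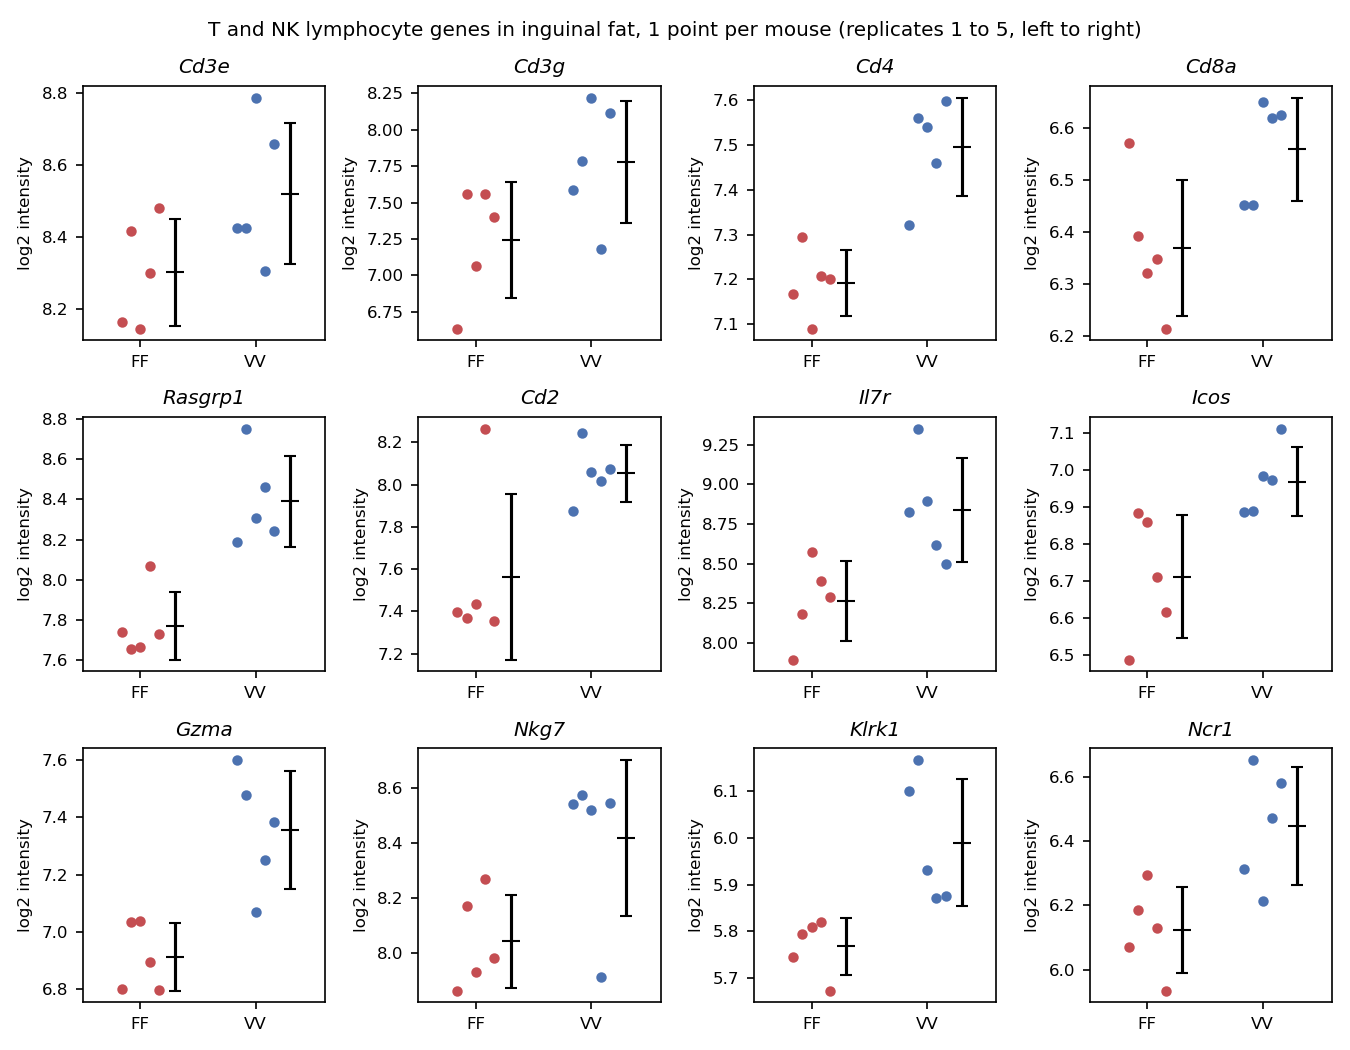
Log2 intensity of 12 members in each mouse, FF left (red) and VV right (blue), with replicates 1 to 5 from left to right and the mean ± SD beside them; each panel has its own axis, which does not start at 0. FF and VV do not overlap for Cd4, Rasgrp1, Icos, Gzma and Klrk1, while 1 FF mouse lies above the VV mice for Cd2 and 1 VV mouse among the FF mice for Nkg7.

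Rasgrp1 was the member that passed the test over all genes. It encodes an exchange factor that activates Ras downstream of the T cell receptor. Rasgrp1 was at 7.74, 7.65, 7.67, 8.07 and 7.73 in FF replicates 1 to 5, against 8.19, 8.75, 8.31, 8.46 and 8.24 in VV replicates 1 to 5. FF replicate 4 lay above the other FF mice and still below the lowest VV mouse, and VV replicate 2 was highest. FF mice averaged 7.77 ± 0.17 and VV mice 8.39 ± 0.23 (SD, 5 mice each). Rasgrp1 thus fell by 0.62 ± 0.11 (SE), or was 1.54-fold lower in FF with a 95% interval from 1.29 to 1.83 (adjusted p = 0.0402, rank 97 of 19659 by p). With 1 mouse left out the call was kept if that mouse was replicate 3 or 4 of FF or replicate 1 of VV, and lost if it was replicate 1, 2 or 5 of FF or replicate 2, 3, 4 or 5 of VV (adjusted p = 0.0652 to 0.107). The difference stayed between -0.69 and -0.53 whichever mouse was left out. FF replicate 4 and VV replicate 2, the highest mice for Rasgrp1 in their genotypes, also had the highest pan-leukocyte scores there (-0.04 and 0.50). The score is the mean of the list's genes, each centred over the mice. The same mice were highest for B and plasma cell genes (0.17 and 0.53), but not for the receptor chains. Which cells the Rasgrp1 RNA came from was not tested.

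**Figure D3:**
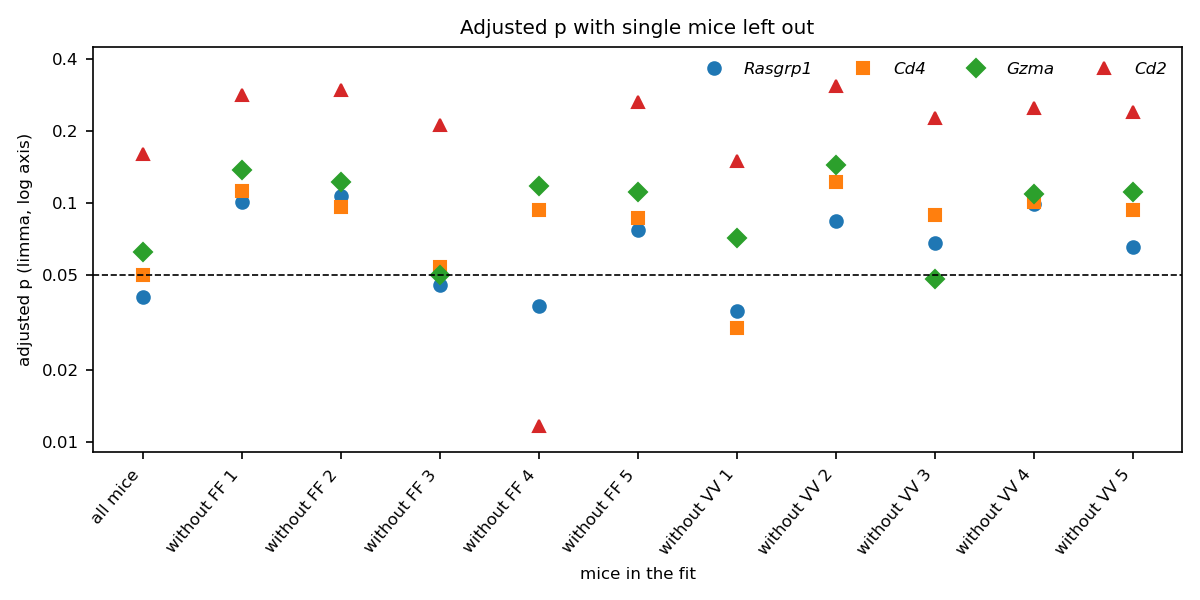
Adjusted p (log axis) of Rasgrp1, Cd4, Gzma and Cd2 with all mice and with each mouse left out, from limma over all genes; the dashed line is the threshold of 0.05. Rasgrp1 is under the line with all mice and in 3 of the 10 smaller fits, and Cd2 reaches 0.0116 without FF replicate 4.

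The promoters of the 3 members with the smallest p and an entry in the table used are shown to let the genes be compared in sequence, as 250 bases before to 50 after the start in RefSeq (GRCm38.p6, minus strand in each case); the windows are chr2:117342828-117343127 for Rasgrp1, chr13:113100932-113101231 for Gzma and chr15:9529827-9530126 for Il7r. Capitals mark exact matches, on either strand, to 6-letter versions of 3 cores of factors that act in lymphocytes: TGTGGT of RUNX proteins, AGGAAG of ETS proteins and CTTTGA of TCF and LEF proteins. Other versions of these cores were not searched.
Rasgrp1: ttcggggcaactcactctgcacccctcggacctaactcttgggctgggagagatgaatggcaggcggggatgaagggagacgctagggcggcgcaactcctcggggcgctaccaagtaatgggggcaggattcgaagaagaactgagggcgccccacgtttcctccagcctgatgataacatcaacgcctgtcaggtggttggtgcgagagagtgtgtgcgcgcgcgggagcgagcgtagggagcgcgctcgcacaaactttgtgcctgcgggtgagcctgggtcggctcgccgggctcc
Gzma: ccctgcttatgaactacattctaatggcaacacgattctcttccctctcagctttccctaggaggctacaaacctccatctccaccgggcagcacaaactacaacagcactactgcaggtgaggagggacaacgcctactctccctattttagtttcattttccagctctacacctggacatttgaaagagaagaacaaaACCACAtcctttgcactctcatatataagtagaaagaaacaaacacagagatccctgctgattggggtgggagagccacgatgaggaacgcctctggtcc
Il7r: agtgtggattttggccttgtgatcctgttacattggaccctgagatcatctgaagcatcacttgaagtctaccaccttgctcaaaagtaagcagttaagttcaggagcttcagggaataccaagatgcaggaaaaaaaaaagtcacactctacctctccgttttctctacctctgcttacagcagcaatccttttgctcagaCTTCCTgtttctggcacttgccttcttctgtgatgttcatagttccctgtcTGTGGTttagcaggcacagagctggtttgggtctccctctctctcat
These are letters of the reference strain, and the sequences of the Fat and V lines were not analysed here. The Rasgrp1 window had no exact match to any of the 3 and a GC content of 63.7%, against a median of 52.7% over all promoters. Gzma (47.7% GC) had 1 RUNX match, and Il7r (45.7% GC) had 1 RUNX and 1 ETS match. Of the 40 measured members 30 had a promoter entry, and the RUNX core was in 30.0% of them, the ETS core in 46.7% and the TCF and LEF core in 30.0%, beside 16.9%, 35.1% and 16.2% of 27025 promoters in all. A match describes the letters in the window and was not tied to binding or to the differences in expression.

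All 7 measured genes of receptor-proximal signalling, Rasgrp1 included, lay below 0, with a median of -0.16. Lat read 6.71, 6.69, 6.68, 6.71 and 6.82 in FF replicates 1 to 5, against 6.89, 6.81, 7.12, 6.84 and 6.86 in VV replicates 1 to 5. This adaptor, which Zap70 phosphorylates, differed by -0.18 ± 0.06 (adjusted p = 0.169), and only FF replicate 5 overlapped with the lowest VV mouse. Zap70, the kinase bound to the phosphorylated CD3 and zeta chains, differed by -0.16, and Skap1, an adaptor of integrin activation, by -0.16, both with an unadjusted p under 0.05 (0.0453 and 0.0321) and neither past the adjusted threshold. Ubash3a, a suppressor of receptor signalling, Txk, a Tec-family kinase, and Themis, a regulator of thymocyte selection, differed by -0.12, -0.11 and -0.06 with intervals that include 0.

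All 8 costimulatory and surface genes lay below 0, with a median of -0.15. Cd2 had log2 intensities of 7.40, 7.37, 7.43, 8.26 and 7.36 in FF replicates 1 to 5, against 7.87, 8.24, 8.06, 8.01 and 8.07 in VV replicates 1 to 5. This adhesion receptor of T and NK cells, which mouse B cells carry too, had 4 FF mice below every VV mouse, and FF replicate 4 above every VV mouse. With all mice the difference of Cd2 was -0.49 ± 0.16 (adjusted p = 0.161), and without FF replicate 4 it was -0.66 with an adjusted p of 0.0116. In the same mouse the score of the 18 B and plasma cell genes was 0.17, against -0.53 to -0.15 in the other FF mice, and its part in the Cd2 value was not tested. Icos measured 6.49, 6.88, 6.86, 6.71 and 6.62 in FF replicates 1 to 5, against 6.89, 6.89, 6.98, 6.97 and 7.11 in VV replicates 1 to 5. FF replicate 2 reached almost to the lowest VV mice for this inducible costimulator, without overlap (-0.26 ± 0.08, adjusted p = 0.138). Cd6, a receptor that tunes T cell activation, read at most 6.70 in FF mice and at least 6.71 in VV mice, a difference of -0.14 ± 0.05 (adjusted p = 0.212). Cd5, an inhibitory receptor, differed by -0.15 and had an unadjusted p of 0.0290. Thy1, which stromal cells of fat express as well as T cells, differed by -0.23 with an interval from -0.52 to 0.05. The costimulators Cd27 and Cd28 and the checkpoint receptor Ctla4 differed by -0.07, -0.11 and -0.03, all with intervals that include 0; Ctla4 was at 0.002 after centring arrays on their medians.

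Cytokine receptor genes were led by Il7r, the receptor chain for the survival cytokine IL-7. Il7r was at 7.89, 8.18, 8.57, 8.39 and 8.29 in FF replicates 1 to 5, against 8.82, 9.35, 8.89, 8.62 and 8.50 in VV replicates 1 to 5. VV replicate 5 lay within the FF range and FF replicate 1 was lowest of all. FF mice averaged 8.27 ± 0.25 and VV mice 8.84 ± 0.33 (SD, 5 mice each), a difference of -0.57 ± 0.16 (adjusted p = 0.113), second in size to Rasgrp1 among the members. Without VV replicate 2 the difference was -0.44, and it did not pass whichever mouse was left out (adjusted p = 0.0786 to 0.215). Il2rb, the IL-2 and IL-15 receptor chain of NK and memory T cells, differed by -0.10 with an interval from -0.31 to 0.10, and Il18r1, an IL-18 receptor chain, by -0.13 with an interval from -0.36 to 0.11. Il7r and Il2rb both lie on chromosome 15, as Deptor does, but whether they lie in the Fob3a segment was not analysed here.

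No transcription factor passed the test. The 5 measured members had a median difference of -0.02, 3 of them below 0, and 0 had an unadjusted p under 0.05. Bcl11b, which commits cells to the T lineage, differed by -0.14 (interval -0.33 to 0.04), and Tbx21, the T-bet factor of type 1 helper T and NK cells, by -0.12 (interval -0.26 to 0.02). Foxp3, the factor of regulatory T cells, read 6.503 to 6.80 in FF mice and 6.59 to 6.75 in VV mice, and its difference of -0.02 had an interval from -0.17 to 0.12; its sign turned under quantile normalisation (0.02) and median centring (0.02). Gata3, the factor of type 2 helper T cells and innate lymphoid cells, was the one member with a positive difference above 0.1, at 0.11 ± 0.07 (adjusted p = 0.501). Eomes, a factor of NK cells and memory CD8 T cells, was at 0.01 ± 0.07.

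Among cytotoxic effectors, Gzma separated the groups. Gzma read 6.80, 7.04, 7.04, 6.90 and 6.80 in FF replicates 1 to 5, against 7.60, 7.48, 7.07, 7.25 and 7.38 in VV replicates 1 to 5. Granzyme A is a protease of cytotoxic granules, and every FF mouse lay below every VV mouse, the nearest being FF replicate 3 at 7.04 and VV replicate 3 at 7.07. Its difference was -0.44 ± 0.10, or 1.36-fold lower in FF, with an adjusted p of 0.0625; it passed without FF replicate 3 (0.04996) and without VV replicate 3 (0.0479), and in no other fit with 1 mouse left out. Nkg7 had log2 intensities of 7.86, 8.17, 7.93, 8.27 and 7.98 in FF replicates 1 to 5, against 8.54, 8.58, 8.52, 7.91 and 8.54 in VV replicates 1 to 5. For this granule membrane protein VV replicate 4 was at the level of the FF mice, and the other VV mice all lay above them. Nkg7 differed by -0.38 ± 0.13 (adjusted p = 0.177), and by -0.50 without VV replicate 4, with an adjusted p of 0.0746. Gzmb (granzyme B), Gzmk (granzyme K), Prf1 (perforin) and Ifng (interferon gamma) differed by -0.13, -0.16, -0.10 and -0.06, each with an interval that includes 0. Gzmk read 6.31 to 6.36 in VV mice, a spread of 0.02 (SD), while FF replicate 3 was at 5.82.

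NK receptor genes had the largest median difference of the 8 role groups, -0.25 over 4 genes, though which role differs most was not tested. Ncr1 measured 6.07, 6.19, 6.29, 6.13 and 5.93 in FF replicates 1 to 5, against 6.31, 6.65, 6.21, 6.47 and 6.58 in VV replicates 1 to 5. This gene encodes the activating receptor NKp46, which marks NK cells and some innate lymphoid cells, and VV replicate 3 was the one VV mouse inside the FF range. The difference was -0.32 ± 0.09 (adjusted p = 0.115). Klrk1 was at 5.74, 5.79, 5.81, 5.82 and 5.67 in FF replicates 1 to 5, against 6.10, 6.17, 5.93, 5.87 and 5.88 in VV replicates 1 to 5. Klrk1 encodes the activating receptor NKG2D, and its groups did not overlap (-0.22 ± 0.07, adjusted p = 0.125). Klrd1 read 6.58, 6.93, 6.81, 6.66 and 6.37 in FF replicates 1 to 5, against 6.92, 7.09, 6.73, 6.91 and 7.09 in VV replicates 1 to 5. The ranges overlapped for this gene, the CD94 partner chain of NKG2 receptors (-0.28 ± 0.10, adjusted p = 0.210). Klrb1c, the NK1.1 antigen in strains that carry it, differed by -0.07 with an interval from -0.19 to 0.05; Klr genes belong to families of close relatives, so their probe sets may also read relatives.

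**Figure D4:**
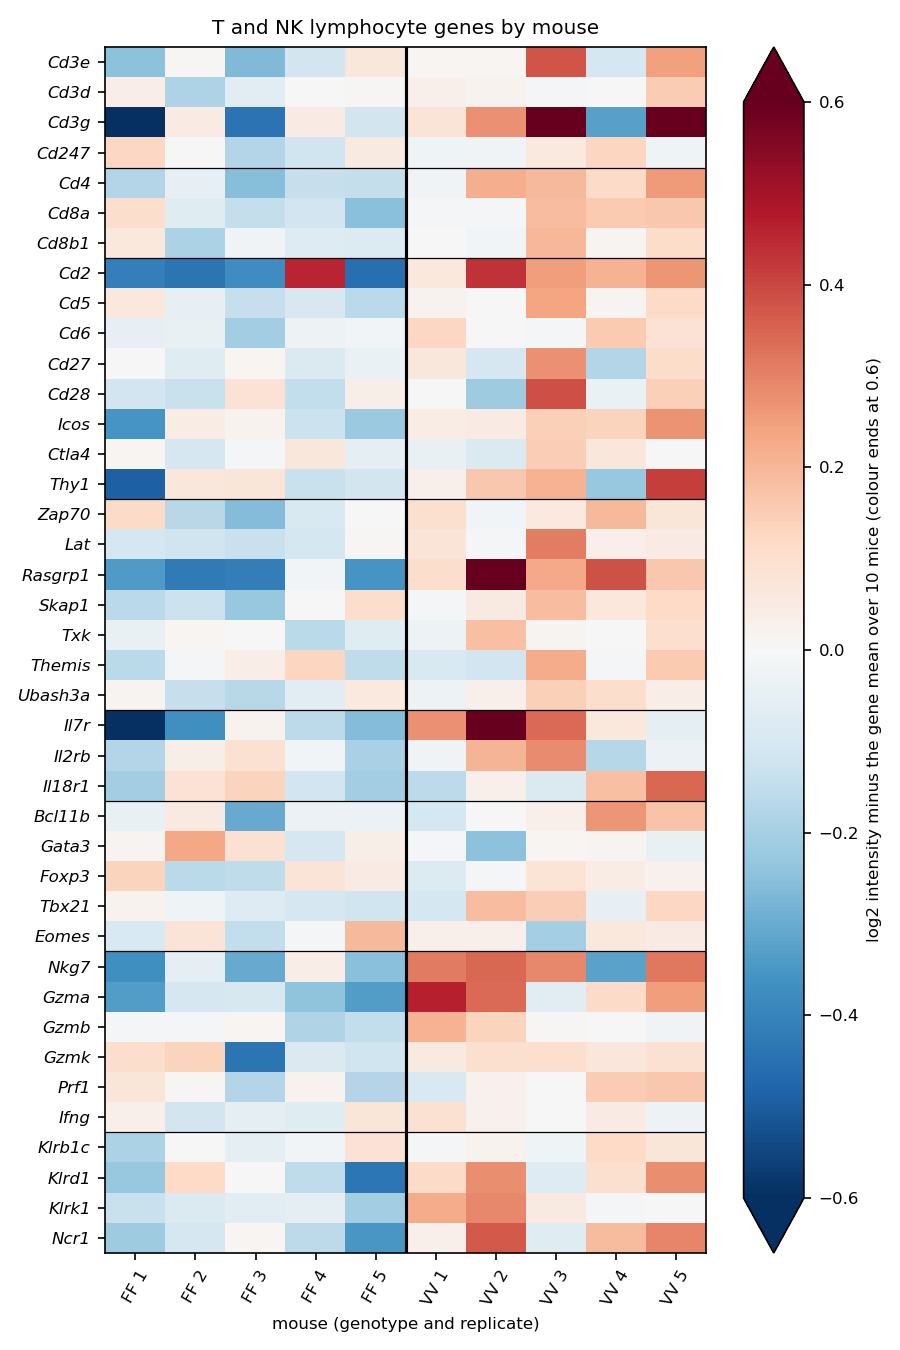
Log2 intensity of each of the 40 members minus its mean over the 10 mice, FF mice left of the black line and VV mice right, with genes in order of role; red is above and blue below the mean. VV replicates 3 and 5 are mostly red and FF columns mostly blue, with FF replicate 4 red for Cd2.

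The mice within a genotype did not move as a block. VV mice held the highest value for 35 of the 40 members and FF mice the lowest for 36. VV replicate 3 was highest for 13 members, among them Cd3e, Cd3g, Cd5, Cd27 and Cd28, while VV replicate 2 was highest for 8, among them Rasgrp1, Il7r, Klrk1 and Ncr1. FF replicates 3 and 5 were lowest for 11 and 10 members. The mean over the members, each centred over the mice, was -0.13 to -0.06 in FF mice and 0.04 to 0.14 in VV mice. For the receptor chains alone it was -0.24 to 0.005 in FF and -0.07 to 0.28 in VV, and for the NK receptors -0.23 to -0.02 in FF and -0.03 to 0.24 in VV, so the groups overlapped in both.

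Members with brighter probe sets had larger differences, which was not tested. Of the 40 members 6 had a mean intensity above the median of all genes (Cd3e, Cd2, Thy1, Rasgrp1, Il7r and Nkg7), and their median difference was -0.43, while that of the other 34 was -0.12. Over all genes the medians were 0.02 above and -0.01 below the same line. Below the 25th percentile of intensity lay 10 members (Cd3d, Klrb1c, Ctla4, Themis, Gzmb, Eomes, Klrk1, Zap70, Ubash3a and Cd8b1). No filter on low values was applied in the reported fit.

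Other genes of the same pathway and cells lay mostly lower in FF too. Of 29 other genes of T cell receptor signalling 21 lay below 0 (median -0.11), 10 lay lower and 2 higher at an unadjusted p under 0.05, and 1 fell past the adjusted threshold. That gene was Ptprc, the phosphatase CD45 that activates Lck and is found on nearly all leukocytes, with means of 8.90 ± 0.26 in FF mice, against 9.58 ± 0.19 in VV mice (SD, 5 mice each), a difference of -0.68 ± 0.13 (adjusted p = 0.0422). Vav1, an exchange factor, Ptpn6, the phosphatase SHP-1, and Ptpn22, another phosphatase, differed by -0.45, -0.40 and -0.46 (adjusted p = 0.0692 to 0.0902). Of 46 other T and NK cell genes 41 lay below 0 (median -0.12) and 1, the chemokine Ccl5, fell by 0.48 ± 0.07 (adjusted p = 0.0333). Gimap3 and Gimap4, lymphocyte GTPases, differed by -0.42 and -0.27 and Pdcd1, the checkpoint receptor PD-1, by -0.22, none of them past the threshold. The Ptprc call was lost on leaving out replicate 1, 2 or 5 of FF or replicate 2, 3, 4 or 5 of VV, and the Ccl5 call on leaving out replicate 1, 4 or 5 of FF or replicate 2, 4 or 5 of VV (adjusted p up to 0.104 and 0.0898).

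Genes of other leukocytes lay lower in FF as well. All 20 pan-leukocyte genes were below 0 (median -0.41), and 4 fell: Ptprc, Itgal, a chain of the integrin LFA-1 (-0.39), Arhgdib (-0.43), and Itga4, an integrin chain (-0.58), with adjusted p from 0.0362 to 0.0475. All 4 calls were lost on leaving out any one of replicates 1, 2 and 5 of FF or 2, 3, 4 and 5 of VV, and those of Itgal and Arhgdib also on leaving out replicate 4 of FF. All 18 B and plasma cell genes were below 0 (median -0.43) with 14 at an unadjusted p under 0.05 and none past the adjusted threshold; Ms4a1, the B cell antigen CD20, averaged 7.595 ± 0.82 in FF mice, against 9.002 ± 0.44 in VV mice (SD, 5 mice each), a difference of -1.41 ± 0.36 (adjusted p = 0.0875). Fcer2a, Bank1 and Cr2, also of B cells, differed by -0.77, -0.70 and -0.36. All 19 macrophage and monocyte genes were below 0 (median -0.26), 13 at an unadjusted p under 0.05 and none past the threshold; the chemokine receptor Ccr2 differed by -0.64 (adjusted p = 0.0511), Lyz2 by -0.39, Adgre1 by -0.53 and C1qa by -0.29. In list scores, the mean of the list's genes each centred over the mice, FF mice lay at -0.40 to -0.04 for the pan-leukocyte genes, against 0.06 to 0.17 in 4 VV mice and 0.50 in VV replicate 2. For the macrophage and monocyte genes FF mice lay at -0.30 to -0.02, against 0.07 to 0.11 in the same 4 VV mice and 0.34 in VV replicate 2. For the B and plasma cell genes FF mice lay at -0.53 to 0.17 and VV mice at -0.005 to 0.53, so the groups overlapped. The highest of these scores were those of VV replicates 2 and 5, at 0.53 and 0.49. For the other T cell receptor signalling genes FF mice lay at -0.16 to -0.02, against -0.01 to 0.08 in 4 VV mice and 0.21 in VV replicate 2. For the T and NK members VV replicate 2 was at 0.11, below VV replicates 3 and 5 at 0.13 and 0.14. Without VV replicate 2, limma called 0 of all 19659 genes lower in FF, against 26 with all mice. In that fit 15 members were lower at an unadjusted p under 0.05, and the share of all genes under that p was not counted. The part of this mouse in the differences was not tested. Whether the T and NK genes differ less than those of other leukocytes was not tested, and the lists share Ptprc, Vav1 and Cr2.

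Genes of lymph node stroma were read because the inguinal pad can carry node tissue. Of 11 measured, 9 lay below 0 (median -0.14) and none passed the threshold. Cxcl13, the chemokine of B cell follicles, read 10.09 to 11.54 in FF mice and 11.55 to 11.72 in VV mice, without overlap (-0.84 ± 0.23, adjusted p = 0.0964), and FF replicate 4 was the highest FF mouse. Cr2, which is also in the B and plasma cell list, differed by -0.36. Ltbr, the lymphotoxin beta receptor, differed by 0.15 and Pdpn, podoplanin, by -0.25. Glycam1, also of this list, read 7.13 in VV replicate 3 and 5.15 to 5.80 in the other mice (-0.48, adjusted p = 0.473 in limma). The list score of VV replicate 3 was 0.09. That mouse was also highest for 13 members, and a link with Glycam1 was not tested. The list score was -0.22 to 0.005 in FF mice and 0.003 to 0.25 in VV mice, so it was lower in FF with ranges that met, and its part in the differences of the lymphocyte genes was not tested.

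**Figure D5:**
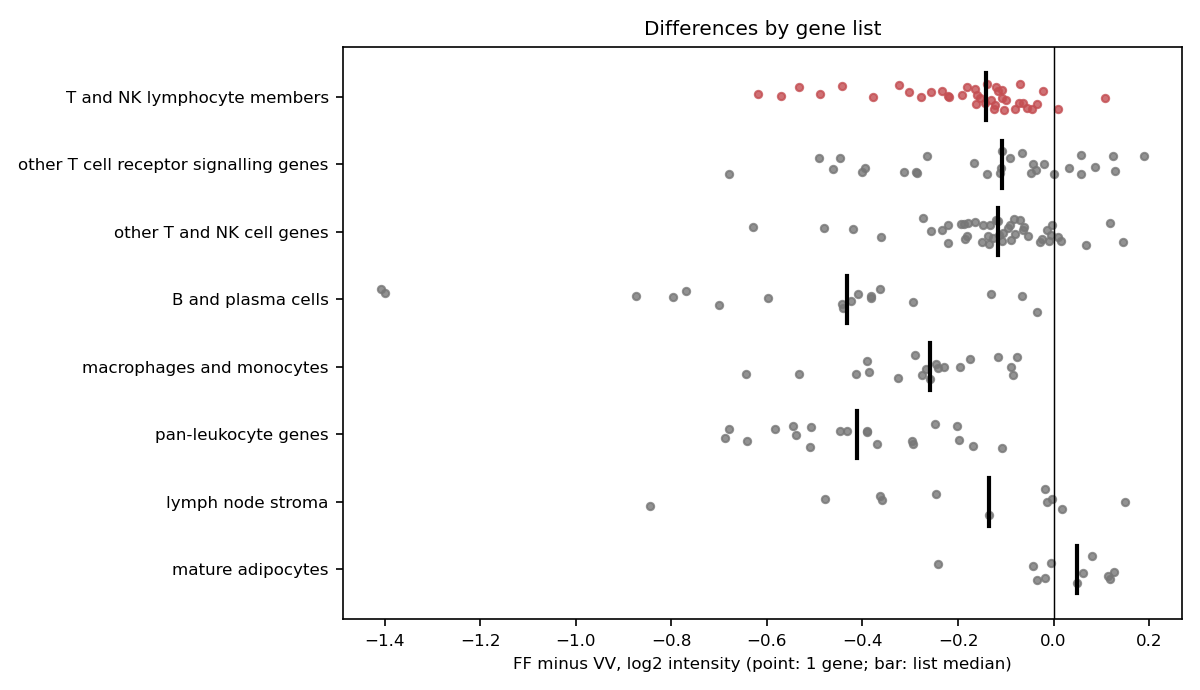
FF minus VV difference in log2 intensity of every measured gene (points) of the T and NK members, top, and of lists of related and other cell types below, with the list median as a bar. The median of the members is -0.14, that of B and plasma cells -0.43 and that of mature adipocytes 0.05.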

How the data were processed

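Fat RNA of 10 mice, 1 animal per array according to the labels, was hybridised to one-colour arrays. Per the submitters' processing notes the authors used RMA, and the deposited table holds its log2 intensities; the RMA version, the array annotation, the build and any batch or scan date were not given in the sources used here. Of 35557 probe sets 25689 had values, from 3.56 to 14.2, with array medians of 7.15 to 7.17 in FF and 7.18 to 7.21 in VV. The 20777 that name 1 gene were kept, the brightest standing for its gene (19659 genes); 232 with several genes and 4680 unnamed were left out. Symbols came from the platform annotation and RefSeq (GRCm38.p6).

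Testing used limma 3.58.1 in R 4.3.3 (moderated, two-sided, without covariates; Benjamini-Hochberg over all genes, threshold 0.05). The number of arrays limits the precision. Members and lists were chosen with earlier results of these data known, so no list was tested. Values in every mouse are given for receptor chains, coreceptors, members past the threshold and the 12 members with the smallest p. Other lists name up to 4 genes with the smallest p, with Adipoq and Glycam1 besides. Alternatives left out mice, blocked on replicate number, or changed normalisation, scaling, intensity filter, probe set summary or variance model. The fit was also run on simulated data with independent normal noise and variances taken from the real fit. It recovered 90 of 100 genes shifted by 0.5 and 98 of 100 shifted by 1, with 11 false calls. Shifts shared by many genes of a mouse were not simulated. Plots were made in Python 3.11.15 (matplotlib 3.10.9).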

Additional observations from a re-analysis of the deposited data

Results flagged for a closer look

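In 10 of the 80 sets of 5 mice tested (40 members in each genotype) 1 mouse lay far from the other 4 relative to the range of the group, where chance gives about 1 in 20. In FF mice, Cd2 was 8.26 in replicate 4 against 7.36 to 7.44 in the others, and Rasgrp1 was 8.07 in the same mouse against 7.65 to 7.74. FF replicate 3 was low for Cd6, at 6.51 against 6.67 to 6.70, and for Bcl11b, at 6.61 against 6.87 to 6.97, and FF replicate 5 was high for Lat, at 6.82 against 6.68 to 6.71. In VV mice, replicate 4 was low for Nkg7, at 7.91 against 8.52 to 8.58. VV replicate 3 was high for Lat, at 7.12 against 6.81 to 6.89, and low for Eomes, at 5.67 against 5.90 to 5.94. VV replicate 5 was high for Cd3d, at 5.23 against 5.08 to 5.11, and VV replicate 2 was low for Gata3, at 6.40 against 6.60 to 6.66.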

How the results depend on the processing

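The 148 genes past the threshold over all genes became 7 to 379 with single mice left out, 5 with the replicate block, 28 without FF replicate 1 and VV replicate 1, 601 after centring arrays on their median, 230 and 355 among genes above the 25th percentile and the median of intensity, 383 with array weights and 7 in the unmoderated test. The 1 member called lower became 0 to 2 with single mice left out, 0 with the replicate block, without FF replicate 1 and VV replicate 1 and in the unmoderated test, 3 with centred arrays and among genes above the 25th percentile, and 2 with the mean of probe sets and with array weights; the count called higher stayed 0 under all of these alternatives. Members below 0 numbered 36 to 39 of 40 in every fit that kept all 40, and those with an unadjusted p under 0.05 numbered 12 to 24. For the alternatives the share of all genes under that p was not counted. Above the median intensity 6 members were left, of which 6 lay below 0, 4 had an unadjusted p under 0.05, and the median was -0.43; under every other alternative the median lay between -0.16 and -0.10 or, without FF replicate 1 and VV replicate 1, at -0.17. The sign turned for 3 members with differences near 0: Ctla4 (0.0024 with centred arrays), Foxp3 (0.0246 with quantile normalisation, 0.0152 with centred arrays, and -0.0579 to 0.0162 with single mice left out, above 0 without FF replicate 2 or 3), and Eomes (-0.0392 to 0.0484 with single mice left out, below 0 on leaving out replicate 2 or 5 of FF or replicate 3 of VV). With the replicate block the adjusted p of Rasgrp1 was 0.161 in limma. Deviations from the group mean correlated at -0.26 to 0.10 between same-numbered FF and VV mice. These correlations were taken over all genes, so they cannot exclude a pairing that affects some genes only. The cause of these changes was not tested. Under the intensity filters fewer genes were tested, and the variance model was fitted to those genes alone. The number of arrays limits the precision.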
